A study of Mus musculus with 12 samples.

Results

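The 10 genes described here encode antibody constant regions and proteins that plasma cells use to secrete antibody. They were chosen by name: the heavy-chain genes Ighm, Ighd, Ighg1, Ighg2b, Ighg2c and Igha, the light-chain genes Igkc and Iglc2, the joining-chain gene Jchain and the chaperone gene Mzb1. All 10 were found among the 55487 gene IDs of the count files. RNA came from mammary glands of C57BL/6 mice, an inbred laboratory strain, at postnatal day 84. In 6 libraries the mice had been supplemented with 5 mg/kg folic acid and in 6 libraries with 1 mg/kg. The samples are labelled as 4 weeks after supplementation. The series title names the juvenile and peri-pubertal period and female mice. The right thoracic fat pad was frozen whole, so a library mixes fat, epithelium, muscle, vessels and immune cells. The labels do not say that libraries are separate animals, so a p-value measures the spread between these samples, which may be technical. Libraries held 48165752 to 75299437 gene-assigned reads, from 41.9% to 64.8% of them mitochondrial. Reads given to no gene were 16.7% to 35.7% of all reads. The epithelial markers Epcam, Krt8, Krt18, Krt5, Krt14 and Elf5 were detected in every library, and their summed level ran from 66.5 to 420 CPM (read counts relative to the scaled size of each library).

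An antibody joins heavy chains, whose constant region sets the isotype, to kappa or lambda light chains. Naive B cells make IgM and IgD from the same primary transcript. Activated B cells can replace the IgM constant region by that of IgG, IgA or IgE through class switching, and plasma cells secrete the product in bulk. The mammary gland is known as a site where plasma cells make IgA, which epithelium carries into milk during lactation.

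The 6 heavy-chain members lie in 1 cluster on GRCm38 chromosome 12, together with Ighg3 and Ighe, all on the minus strand and annotated as constant-region genes, with Igha at 113254830 to 113260236 and Ighm at 113418558 to 113422730. Igkc lies on chromosome 6 (70726435 to 70726966), Iglc2 on chromosome 16 (19198396 to 19200351) and Jchain on chromosome 5 (88519809 to 88527891). IgM and IgA are the isotypes to which J chain is joined, through a cysteine just before the last residue of the secreted tail. The ends of the secreted coding sequences are shown to relate Jchain to these isotypes, with that cysteine codon in capitals and the stop codon last. They come from GENCODE vM21 transcripts, minus strand, chr12:113420867-113420926 for Ighm, chr12:113258768-113258827 for Igha and chr12:113328976-113329035 for Ighg1, whose tail has no such codon.
Ighm: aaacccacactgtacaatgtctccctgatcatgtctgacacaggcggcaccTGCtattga
Igha: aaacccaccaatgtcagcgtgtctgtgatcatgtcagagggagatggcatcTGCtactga
Ighg1: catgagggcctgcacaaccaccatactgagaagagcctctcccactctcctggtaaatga

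A second set shows how alike the lambda constant genes are, since reads that fit more than 1 place were not counted to any gene. The coding sequences of Iglc2 and Iglc3 differed at 11 of 317 bases (96.5% identical), and their longest identical stretch was 79 bases. The first 120 aligned bases follow, with differing bases in capitals (minus strand, chr16:19198733-19198852 for Iglc2 and chr16:19065562-19065681 for Iglc3).
Iglc2: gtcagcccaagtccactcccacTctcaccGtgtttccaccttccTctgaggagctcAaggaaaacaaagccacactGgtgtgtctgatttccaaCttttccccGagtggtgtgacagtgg
Iglc3: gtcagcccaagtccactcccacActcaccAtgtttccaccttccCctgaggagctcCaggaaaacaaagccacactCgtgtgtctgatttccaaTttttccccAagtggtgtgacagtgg
Between Ighg2b and Ighg2c the longest identical coding stretch was 78 bases (chr12:113306869-113306946 and chr12:113287869-113287946). Reads that lay wholly in a shared stretch could thus be missing from the counts of both genes of a pair, which makes these counts uncertain.

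The B cell gene Ms4a1 (CD20) divided the libraries at 5 CPM into 7 with 17.7 to 152 CPM and 5 with 0.482 to 1.37 CPM. The 7 were replicates 1, 2 and 3 at 5 mg/kg and replicates 1, 3, 5 and 6 at 1 mg/kg. Glycam1, a gene of lymph node venules and of milk, ran from 98.1 to 519 CPM in the 7 and from 0.806 to 6.99 CPM in the 5. All 12 listed B cell genes were higher in every one of the 7 than in any of the 5. For Ms4a1, which is on that list, this was fixed by the division. All 7 listed T cell genes were higher in the same way, as were 3 of 6 lymph node stroma and venule genes. Of all 18647 tested genes, 9.20% were higher in this way and 4.28% lower. Ccl21a, of the stroma and venule list, was at 0 in all 12 libraries. Reads that fit more than 1 place were counted to no gene, and their part in this 0 was not tested. This division is by a measured gene of the same cells and defines no group of the study, so what follows from it is given as ranges without a test. Fewer cells of a type and less RNA per cell cannot be told apart in such tissue RNA.

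Among the heavy-chain constant genes, Ighm had the largest share of reads per kilobase in each library. This share was 49.0% to 63.0% in the 7 libraries and 84.9% to 90.0% in the 5. Ighm, the IgM constant gene, was at 23.7, 136 and 376 CPM (lowest, median and highest of 6 libraries) at 5 mg/kg and at 17.1, 233 and 488 CPM at 1 mg/kg. Its 5 lowest values, 17.1 to 34.7 CPM, were in the 5 libraries low in Ms4a1, and the other 7 held 115 to 488 CPM. Ighd, the IgD gene that naive B cells express beside IgM, was at 1.86, 57.5 and 211 CPM at 5 mg/kg and at 1.13, 131 and 255 CPM at 1 mg/kg. Ighd ran from 1.13 to 2.97 CPM in the 5 libraries and from 32.1 to 255 CPM in the 7. The doses overlapped in both genes.

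Ighm and Ighd did not fall in proportion. Per kilobase of exon, the Ighm level was 1.39 to 3.60 times that of Ighd in the 7 libraries high in Ms4a1. It was 8.34 to 19.2 times that of Ighd in the 5 others. The light chain behaved like Ighd in this respect. The Igkc level per kilobase was 1.60 to 2.48 times that of Ighm in the 7 libraries and 0.265 to 0.853 times in the 5. Reads on heavy-chain variable segments, the part that follows gene rearrangement, numbered 0.103 to 0.154 per heavy-chain constant read in the 7 and 0.0412 to 0.106 in the 5, the highest of the latter in replicate 6 at 5 mg/kg. The value of that library lay within the range of the 7, and those of the other 4 lay below it. Kappa variable reads per Igkc read overlapped between the sides, at 0.400 to 0.554 and 0.355 to 0.565. The 5 libraries held 1109 to 2235 Ighm reads each, but only 67 to 134 Ighd reads and 83 to 538 Igkc reads. Variable-segment reads there were fewer still for kappa, at 32 to 191, and numbered 53 to 267 for the heavy chain. The ratios in these 5 libraries thus rest on few reads. Summed markers of the tissue moved with the division to different degrees. The muscle sum overlapped, at 19378 to 39025 CPM in the 5 and 12670 to 62407 CPM in the 7. The epithelial sum overlapped too, at 93.7 to 420 and 66.5 to 243 CPM. The adipocyte sum was higher in each of the 5, at 3371 to 5468 CPM against 1421 to 2975 CPM. Their part in the Ighm level was not tested.

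**Figure D1:**
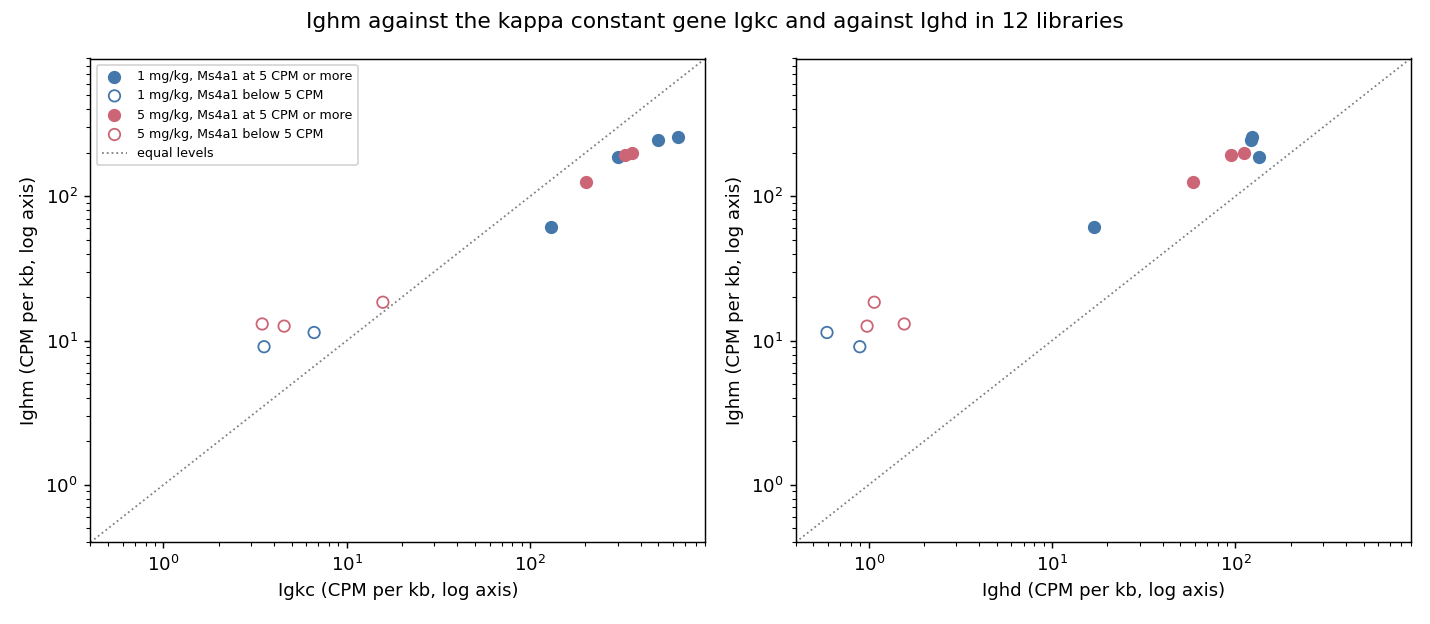
Ighm against Igkc (left) and against Ighd (right), in CPM per kilobase of exon on log axes, 1 point for each of the 12 libraries; the dotted line marks equal levels. The 5 open points, low in Ms4a1, lie above the line in both panels; the 7 filled points lie below it for Igkc, which was 1.60 to 2.48 times Ighm, and above it for Ighd.

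The IgG genes varied strongly between libraries. Ighg1, the IgG1 constant gene, was at 0.0443, 1.33 and 20.2 CPM at 5 mg/kg and at 0.0759, 3.55 and 92.4 CPM at 1 mg/kg. Ighg2b was at 0.0777, 3.91 and 18.8 CPM at 5 mg/kg and at 0.319, 6.72 and 61.3 CPM at 1 mg/kg. Ighg2c, the form that C57BL/6 mice carry in place of IgG2a, was at 0.103, 4.31 and 15.7 CPM at 5 mg/kg and at 0.0759, 19.3 and 120 CPM at 1 mg/kg. For each of these 3 genes the highest library was a 1 mg/kg library, the doses overlapped, and the 5 libraries low in Ms4a1 lay at 0.485 CPM or less. In those 5, single IgG genes rested on 2 to 32 reads.

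As a share of all heavy-chain constant reads per kilobase, the 4 IgG subclasses together (Ighg3 included) made up 1.52% to 29.7% in the 7 libraries high in Ms4a1. Replicate 3 at 1 mg/kg, with the lowest Ms4a1 of the 7 (17.7 CPM), had the largest IgG share, 29.7%. Ighg2c made up 80.8% of the IgG there. Replicate 5 at 1 mg/kg followed with 27.0%, of which Ighg2c was 63.3%, and held the most Ighg3, 65.1 CPM. Replicate 1 at 1 mg/kg had 17.7% IgG, with Ighg1 as the leading subclass at 45.3%. Replicate 6 at 1 mg/kg had 1.52% IgG although its Ms4a1 level, 140 CPM, was the second highest of all. Libraries rich in B cell genes thus differed in the IgG share and in the leading subclass. Ighe, the IgE gene, did not exceed 38 reads in any library and had none in 5. In those 5, a count of 0 allows an Ighe share of up to 0.0318% to 0.233% of heavy-chain constant reads.

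**Figure D2:**
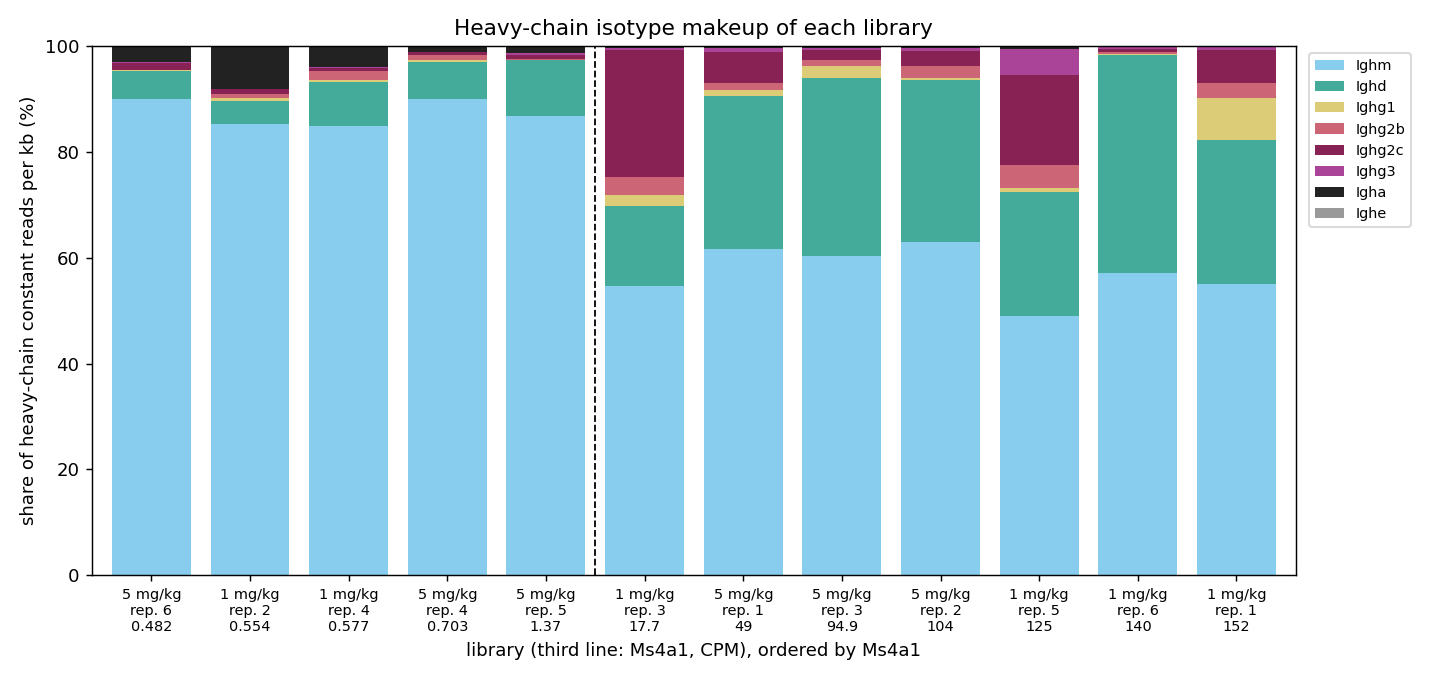
Share of each heavy-chain constant gene, in percent of the reads per kilobase of all 8, with 1 bar for each library ordered by its Ms4a1 level (CPM, in the label under each bar); the dashed line separates libraries below and above 5 CPM. IgG reaches 29.7% to the right of the line. To the left of it the Igha share is 1.16% to 8.08%. In CPM Igha was not higher there, at 0.434 to 2.87 against 1.38 to 7.58.

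Igha, the IgA constant gene, was not separated by the Ms4a1 division as the B cell genes were. It was at 0.434, 1.84 and 3.04 CPM at 5 mg/kg and at 1.09, 1.65 and 7.58 CPM at 1 mg/kg. Among the 7 libraries high in Ms4a1 it ran from 1.38 to 7.58 CPM, with a median of 2.02 CPM. In the 5 others it ran from 0.434 to 2.87 CPM, with a median of 1.09 CPM, so the sides overlapped. Replicate 2 at 1 mg/kg, with 0.554 CPM of Ms4a1, held 2.87 CPM of Igha, more than 4 of the 7 libraries rich in B cell genes. Of its 1551 heavy-chain constant reads, 171 were Igha, or 11% (95% Wilson interval 9.56% to 12.7%, which covers counting error only). In replicate 4 at 1 mg/kg the share of reads was 5.30% (4.23% to 6.62%) and in replicate 6 at 5 mg/kg 4.26% (3.54% to 5.13%). In replicate 1 at 1 mg/kg, the richest in Ms4a1, it was 0.213% (0.181% to 0.251%). Per kilobase the Igha share was 1.16% to 8.08% in the 5 libraries and 0.155% to 0.539% in the 7. These shares rest on 21 to 544 Igha reads a library.

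Kappa was the main light chain throughout. Igkc was at 1.84, 57.7 and 191 CPM at 5 mg/kg and at 1.88, 114 and 342 CPM at 1 mg/kg. It made up 68.8% to 84.3% of the light-chain constant reads per kilobase in the 7 libraries and 71.2% to 81.6% in the 5. Its share thus overlapped between the sides while its level did not, with 68.8 CPM or more against 8.36 CPM or less. The lambda gene Iglc2 was at 0.124, 7.60 and 19.2 CPM at 5 mg/kg and at 0.0759, 15.2 and 30.7 CPM at 1 mg/kg. In the 7 libraries it made up 27.3% to 33.0% of the lambda reads per kilobase of Iglc1, Iglc2 and Iglc3. Replicate 6 at 5 mg/kg stood apart, with 84.7% Iglc2, from 142 Iglc2, 17 Iglc3 and 2 Iglc1 reads. That library had the least Ms4a1 of all, 0.482 CPM, yet the most Igkc, Iglc2 and Jchain among the 5 libraries low in Ms4a1. The other 4 had 24 to 73 lambda reads, with Iglc2 at 12.1% to 39.3%.

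Jchain, which links IgM or IgA units for secretion, was at 0.487, 6.39 and 18.9 CPM at 5 mg/kg and at 0.698, 6.08 and 38.5 CPM at 1 mg/kg. Levels in the 7 libraries were 4.04 to 38.5 CPM and in the 5 others 0.487 to 2.50 CPM. Per kilobase, Jchain was 0.0560 to 0.0835 of the Igkc level in the 5 libraries and 0.00534 to 0.0250 in the 7, so this ratio was higher in each of the 5. Relative to the heavy-chain constant level the sides overlapped, with log2 Jchain at -7.67 to -5.11 in the 7 and -6.25 to -4.36 in the 5. The lowest value of both ratios belonged to replicate 6 at 1 mg/kg, the library with 1.52% IgG. Its Jchain level was 4.04 CPM beside 160 CPM of Igkc. Mzb1, a chaperone of the endoplasmic reticulum in B and plasma cells, had 3 to 34 reads a library. The gene lies on chromosome 18 (GRCm38, 35647267 to 35649367) and shares 695 of its 1215 exon bases with the annotated gene Spata24, so its counts are uncertain. It was at 0.0621, 0.171 and 0.268 CPM at 5 mg/kg and at 0.0759, 0.202 and 0.474 CPM at 1 mg/kg. It was highest in replicates 5 and 6 at 1 mg/kg, and the sides of the Ms4a1 division overlapped.

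**Figure D3:**
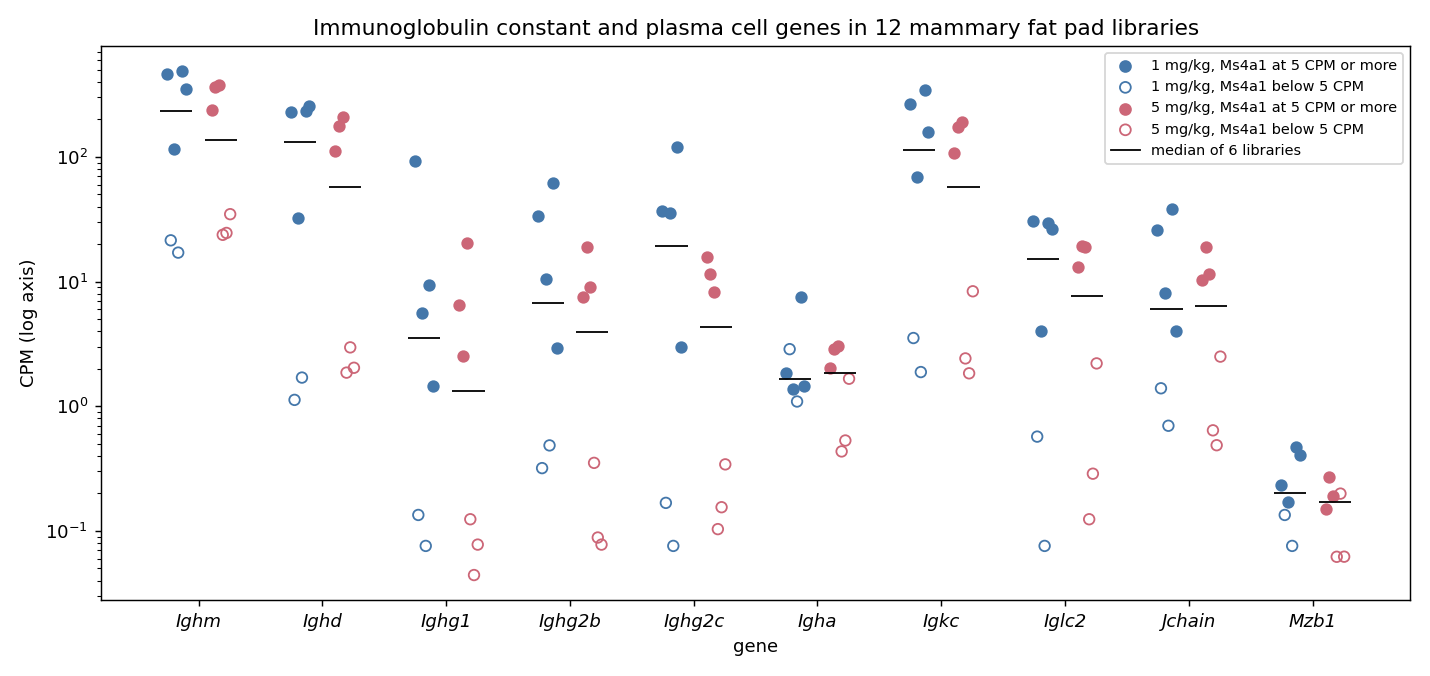
CPM of the 10 genes on a log axis, 1 point for each library, blue for 1 mg/kg and red for 5 mg/kg; filled points have Ms4a1 at 5 CPM or more, and short lines are medians of 6. Filled and open points are separate for 8 genes and overlap for Igha (1.38 to 7.58 against 0.434 to 2.87 CPM) and Mzb1.

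In 8 of the 10 genes every one of the 7 libraries lay above each of the 5, the exceptions being Igha and Mzb1. Such a separation in this direction was found for 9.20% of 18647 tested genes and the opposite, which no member showed, for 4.28%, and the B cell gene that set the division is expressed by the same cells as most of these members. Of 20 listed regulators and secretory genes of plasma cells, 7 were separated in this way. They included the B cell coactivator gene Pou2af1, at 6.70 to 42.0 against 0.165 to 0.465 CPM, and the receptor gene Tnfrsf13b, at 4.51 to 21.9 against 0.941 to 1.82 CPM. Of 6 plasma cell markers, 2 were separated. These were Slamf7, which encodes a surface receptor of plasma cells and other lymphocytes, at 7.66 to 27.2 against 2.85 to 5.07 CPM, and Derl3, a gene of endoplasmic reticulum quality control, at 0.426 to 1.20 against 0.0886 to 0.353 CPM. Tnfrsf17, which encodes the plasma cell receptor BCMA, overlapped, at 0.156 to 0.432 and 0.167 to 0.358 CPM. Sdc1 and Xbp1, which epithelium also expresses, were at 8.70 to 23.4 and 11.8 to 32.1 CPM, and at 47.5 to 82.0 and 64.2 to 84.4 CPM. The summed level of the 6 plasma cell markers, to which Xbp1 gave the most, was 87.4 to 129 CPM in the 7 and 80.3 to 113 CPM in the 5. Of 6 germinal centre genes 1 was separated, and their summed level was 32.5 to 44.5 and 26.5 to 40.7 CPM. Of 4 macrophage genes 1 was separated, with sums of 153 to 318 and 186 to 247 CPM.

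Of the IgA homing, transport and class switch genes, 4 of 11 were separated, beside 9.20% of all tested genes. Tnfsf13b, a B cell survival factor gene, was at 2.52 to 6.18 CPM in the 7 and 1.68 to 2.31 CPM in the 5. Vcam1, an adhesion molecule for lymphocytes, was at 42.1 to 74.5 and 13.6 to 18 CPM. The receptor gene Ccr9, known for homing to the gut, was at 2.17 to 13.3 and 0.0207 to 0.218 CPM. Genes of the IgA route into milk were at low levels. Pigr, the epithelial receptor that carries IgA, was at 0.155 to 0.890 CPM over all libraries, and Ccl28, the epithelial chemokine for IgA plasma cells, at 0.248 to 0.652 CPM. Ccr10, the receptor for that chemokine, was among the separated genes, at 0.222 to 0.516 and 0 to 0.137 CPM.

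The pattern of a member over the 12 libraries was compared with that of 12849 genes by the root mean square difference of log2 CPM centred on each gene's mean. This is a description of likeness, and the points share the spread in B cell RNA. Ighm, whose own standard deviation was 1.92 on the log2 scale, was nearest to Cd52 (0.15), Sash3 (0.18), Il2rg (0.20), Ly9 (0.21) and Cd72 (0.22), all known from lymphocytes. For Igha, with a standard deviation of 1.06, the nearest genes were Mss51 (0.69), Scn2b (0.70), Ada (0.71), Hist1h4m (0.71) and Spdl1 (0.72). Jchain, with 2.10, was nearest to Cxcr6 (0.79), Mcemp1 (0.80), Il2rg (0.81), Ly6c2 (0.81) and Il2rb (0.83). Mzb1, with 0.87 from few reads, was nearest to Pde1c (0.38), Tent5c (0.39), Col11a2 (0.40), Srpk3 (0.41) and Csrnp1 (0.42).

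The design asks whether the members differed between 5 mg/kg and 1 mg/kg folic acid. None did past the threshold, an adjusted p of 0.05. All 9 tested members had a negative log2 fold change, that is lower levels at 5 mg/kg, while 52.8% of all tested genes were negative, with a median of -0.018. The members share the B cell content of each library, so their common sign is not 9 separate observations. Mzb1 was too low to be tested, and a fit without a filter put it at -0.67. The value was -2.43 ± 1.54 (SE) for Ighg2c, with a 95% interval from -5.76 to 0.90. For Ighg1 it was -1.88 ± 1.62 and for Ighg2b -1.60 ± 1.39. Jchain was at -0.83 ± 1.03, Igkc at -0.80 ± 1.28, Iglc2 at -0.76 ± 1.26, Igha at -0.61 ± 0.58, Ighd at -0.57 ± 1.39 and Ighm at -0.45 ± 0.95. By edgeR's quasi-likelihood test the unadjusted p ran from 0.138 for Ighg2c to 0.689 for Ighd, and the Benjamini-Hochberg adjusted p was 0.943 or more. Over all genes 0% were called, and 1.93% (359 of 18647) had an unadjusted p under 0.05, none of them a member. DESeq2 and limma-voom also called 0 genes, with 776 of 48171 and 361 of 18647 at an unadjusted p under 0.05. In all 10 members the 2 doses overlapped, and groups that did not overlap were found for 0.0429% of tested genes.

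**Figure D4:**
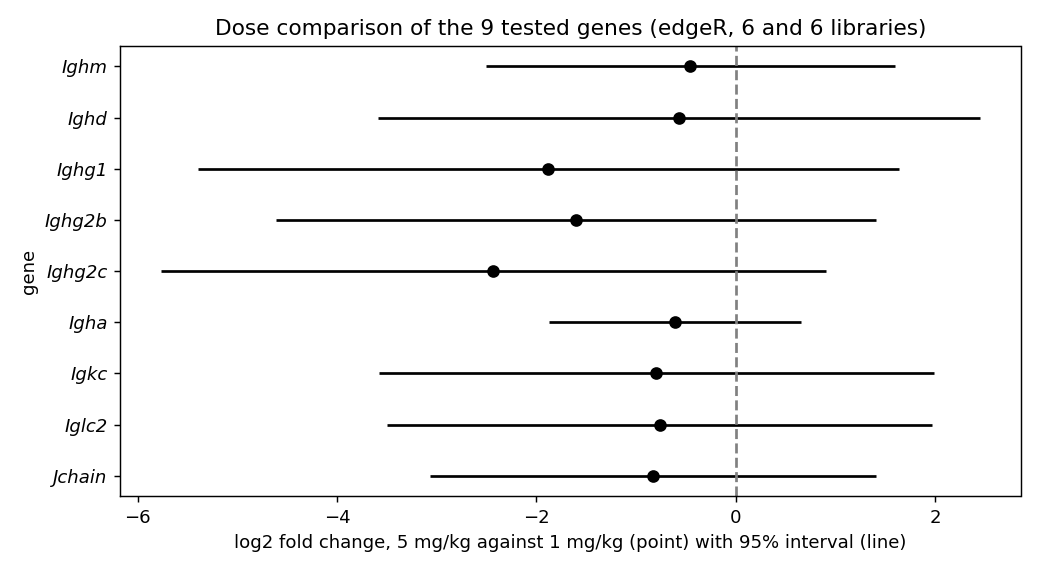
Log2 fold change of the 9 tested genes, 5 mg/kg against 1 mg/kg (points), with 95% intervals (lines) from edgeR over 6 and 6 libraries; the dashed line marks no difference. Every interval includes 0, from -5.76 to 0.90 for Ighg2c to -1.87 to 0.65 for Igha.

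Libraries high in Ms4a1 numbered 3 of 6 at 5 mg/kg and 4 of 6 at 1 mg/kg. With the log2 CPM of Ms4a1 as a covariate, the log2 fold change of Ighm became 0.19, of Ighd 0.25, of Igkc 0.043 and of Iglc2 0.38, while the IgG genes, Igha and Jchain stayed negative. Leaving out replicate 1 at 1 mg/kg turned Ighg1 to 0.57, and leaving out replicate 5 at 1 mg/kg turned Igha to 0.035. Without that same replicate 5 Ighg2c was at -1.32, Ighg2b at -0.68 and Jchain at -0.13. None of these values passed.

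Isotype shares do not depend on the scaling between libraries, although several of them moved with the Ms4a1 division. They were compared by exact two-sided permutation over the 924 assignments of 6 and 6 libraries. The Ighg2c share was 2.18 ± 1.95% in the 5 mg/kg libraries and 8.25 ± 10% in the 1 mg/kg libraries (mean ± SD over 6; p = 0.260 by exact permutation). This difference of -6.07 percentage points became -2.91 without replicate 3 at 1 mg/kg. The Ighg2b share was 0.995 ± 0.790% and 2.27 ± 1.55% (exact permutation p = 0.102). Without replicate 6 at 1 mg/kg the unadjusted exact permutation p was 0.0346. Of 133 share and ratio values under alternatives, it was the only 1 with an exact permutation p under 0.05. The Ighg1 share was 0.751 ± 0.888% and 1.91 ± 3.05% (exact permutation p = 0.543). Ighm made up 75.3 ± 15.0% and 64.3 ± 16.3% (exact permutation p = 0.236), Ighd 19.3 ± 13% and 20 ± 13.5% (exact permutation p = 0.933) and Igha 1.10 ± 1.05% and 2.21 ± 3.20% (exact permutation p = 0.593). The kappa share of light chains was 76.1 ± 3.68% and 76.8 ± 5.32% (exact permutation p = 0.797). Adjusted over these 7 shares by Benjamini-Hochberg, the smallest p was 0.606. Per heavy-chain constant level, log2 Jchain was -5.59 ± 0.69 and -5.52 ± 1.09 (exact permutation p = 0.916, adjusted over 2 ratios 0.972) and log2 Mzb1 -9.13 ± 1.81 and -9.18 ± 1.73 (exact permutation p = 0.972).

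Of the listed plasma cell regulators and secretory genes, 16 of 20 had a negative log2 fold change by edgeR and 4 a positive one, with a median of -0.12, and none passed. Irf4, a transcription factor of plasma cells and other cell types, had the smallest unadjusted p (0.0533, adjusted p = 0.943) at -0.93 ± 0.44 (SE). Its levels were 20.1, 34.6 and 81.1 CPM at 5 mg/kg and 39.2, 66.9 and 168 CPM at 1 mg/kg. Sdc1 was at 0.46 ± 0.25 and Xbp1 at 0.030 ± 0.14. Of the 10 tested genes of IgA homing, transport and class switch, 9 were negative, with a median of -0.51, and none passed. Pigr was at -0.66 ± 0.33, the B cell survival factor gene Tnfsf13b at -0.58 ± 0.36 and the chemokine gene Cxcl12 at -0.17 ± 0.15. The other constant genes Ighg3, Iglc1 and Iglc3 were at -2.66 ± 1.63, -0.75 ± 1.21 and -0.61 ± 1.39, and none passed. The 12 B cell and 7 T cell genes, which mark the lymphocyte content of the pads, were all negative too, with medians of -0.59 and -0.58. By edgeR the smallest unadjusted p of the B cell list was 0.478. All 4 tested node stroma and venule genes were negative (median -0.60), as were 3 of 5 tested germinal centre genes (-0.39), 3 of 6 plasma cell markers (-0.081), 3 of 6 epithelial genes (-0.0072), 3 of 4 muscle genes (-0.17) and 1 of 4 macrophage genes (0.13). All 5 adipocyte genes were positive, with a median of 0.39. No gene of these lists passed.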

How the data were processed

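Whole fat pads gave RNA by the mirVANA method for TruSeq v2 libraries, per the labels' protocols. The authors deposited raw read counts per Ensembl gene, 1 file a library. STAR, HTSeq 0.6.1 and the mm10 build are named in the submitters' processing notes. Which annotation and strand setting served for counting is not given in the sources used here. The 5 tally lines of unassigned reads (16.7% to 35.7% of reads, 8.30% to 10.5% multiply aligned) stayed out of library sizes and tests.

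Symbols matched 55141 of 55487 IDs; positions, exon lengths and transcript sequences came from GENCODE vM21 (GRCm38). The dose test was edgeR 4.0.16 in R 4.3.3 (filterByExpr, TMM, robust quasi-likelihood F-test) over 12 libraries and 18647 genes, adjusted by Benjamini-Hochberg with a threshold of 0.05, and checked on simulated data. CPM uses TMM-scaled library sizes. Shares divide reads by exon length; ratios add 0.5 reads. No 2 libraries of a group agreed within counting noise (lowest chi-square 41.7 per degree of freedom over 30 pairs). Alternatives used DESeq2 1.42.0, limma 3.58.1, other scalings and filters, an Ms4a1 covariate, other share definitions and each library left out.

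Named were all members, the highest and the 2 smallest-p genes of each list, and the 5 genes nearest Igha, Ighm, Jchain and Mzb1. Marker lists are given as counts and sums, and other list genes were named after their values were seen. The comparison of variable-segment reads, the ratios between members and the lambda makeup were added after seeing the data. The members and lists were chosen with earlier results of these data known. Some items are not reported here.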

Additional observations from a re-analysis of the deposited data

Results flagged for a closer look

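In groups of 6 libraries, 38 sets of values were examined for a library far from the rest, and chance marks about 1 in 20. That rate is a rough guide only, since the sets share libraries and each dose mixes libraries high and low in Ms4a1. The following 7 values stood apart from the other libraries of their dose. Replicate 5 at 1 mg/kg held 7.58 CPM of Igha and 120 CPM of Ighg2c. Replicate 1 at 1 mg/kg held 92.4 CPM of Ighg1, which made up 8.0% of its heavy-chain constant reads per kilobase. Replicate 3 at 5 mg/kg held 20.2 CPM of Ighg1. In replicate 6 at 5 mg/kg Igha made up 3.05% of heavy-chain constant reads per kilobase. Replicate 6 at 1 mg/kg had the lowest Jchain level for its heavy chains, -7.67 on the log2 scale.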

How the results depend on the processing

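No alternative called a gene. Of 187 member values under alternatives, 181 kept their sign, none passed, and the smallest adjusted p was 0.652. Reversed were, with the Ms4a1 covariate, Ighm (0.19), Ighd (0.25), Igkc (0.043) and Iglc2 (0.38), and with 1 library left out Igha (from -0.84 to 0.035) and Ighg1 (-3.29 to 0.57). Without TMM factors, the median of all genes was -0.16, and the members stayed negative. DESeq2 gave no p for Ighg1. With 1 library left out, dose differences of shares ran in percentage points from -1.52 to 0.069 for Igha, -3.78 to 3.56 for Ighd, -1.51 to 0.058 for Ighg1, -1.66 to -0.86 for Ighg2b, -7.61 to -2.91 for Ighg2c, 7.93 to 15.2 for Ighm and -2.30 to 0.80 for Igkc. In the same way the log2 fold changes ran from -0.82 to -0.13 for Ighm, -1.08 to -0.24 for Ighd, -2.41 to -0.68 for Ighg2b, -2.99 to -1.32 for Ighg2c, -1.25 to -0.31 for Igkc, -1.14 to -0.44 for Iglc2 and -1.37 to -0.13 for Jchain. The log2 ratios ran from -0.49 to 0.12 for Jchain and -0.49 to 0.52 for Mzb1. The Igha share on the log2 scale reversed to 0.021, and the Jchain ratio to light chains to 0.23; the cause was not tested. Of 133 such values 1 had an exact permutation p under 0.05, the Ighg2b share without replicate 6 at 1 mg/kg (0.0346). The Ms4a1 division gave 7 libraries, and 6 to 8 at the other cut points. No paired analysis was possible because the labels give no replicate numbers, and those used here only follow the order of the records in each dose. Few reads limit the shares of IgG in the 5 libraries low in Ms4a1 and all values of Mzb1.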
